A study of Homo sapiens with 2 samples.

Results

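The genes IL1B, IL6, CASP1, CSF2RB, IKBKB and IKBKG code for inflammatory cytokines, the protease that matures one of them, a cytokine receptor chain and parts of the kinase that switches on NF-kappaB. These 6 genes were selected on the outcome itself, being named in the tables of genes with ALKBH5 peaks in HL-60 cells, out of 5851 gene symbols named in all. TNF, JAK1 and JAK2, genes of the same signalling routes, were chosen beside them because the tables did not name them. Being named or not is therefore a description here and carries no test.

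HL-60 is an established human promyelocytic leukaemia cell line. ALKBH5 is a demethylase that erases m6A, a methyl mark on adenosine in RNA. An anti-ALKBH5 antibody was used to pull down RNA (IP) from the lysate, and part of the lysate was kept as input, with no treatment named in the labels. The series design text gives 80% of the lysate to the antibody, 10% to the input and 10% to a rabbit IgG control, which was not analysed here. The labels hold 2 libraries, 1 IP and 1 input, both of HL60 cells and both labelled with the genotype ALKBH5. The title and the library name of each library contradict each other on which of them is the IP. No value below depends on that choice, since neither a gene's level nor a library's value is part of the deposited tables. The depth behind each named gene is therefore unknown, and there was no replicate check.

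IL-1 beta and IL-6 are secreted cytokines that drive fever, acute phase responses and joint inflammation. Caspase-1, switched on in inflammasomes, cuts the inactive precursor of IL-1 beta into its active form. Signals from IL-1, TNF and Toll-like receptors meet at the IKK complex, which marks inhibitor proteins for destruction and so lets NF-kappaB enter the nucleus and induce genes such as IL1B and IL6. Receptors for IL-6 and for GM-CSF, IL-3 and IL-5 signal through JAK kinases and STAT proteins. In neutrophils and their precursors these routes govern survival and activation.

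The 6 genes were named in 61 gene and term pairings, spread over 34 distinct terms of the 349 listed (311 GO terms and 38 KEGG pathways). IKBKG was named in 22 terms, IKBKB in 19, IL6 in 8, IL1B in 6, CASP1 in 5 and CSF2RB in 1. TNF, JAK1 and JAK2 were named in 0. The median over all 5614 symbols of the GO and KEGG tables was 4 terms, with a range of 1 to 40. The IKK genes lay far above that median, with 98.4% of symbols in fewer terms than IKBKG and 96.9% in fewer than IKBKB. IL1B and CASP1 lay closer to it, with 59.7% of symbols in fewer terms than IL1B and 50.8% in fewer than CASP1. IL6 lay between, with 73.8% of symbols in fewer terms. CSF2RB was at the minimum, like 778 other symbols of a single term. The number of terms reflects how widely a gene is annotated in GO and KEGG and is not a measure of binding.

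**Figure D1:**
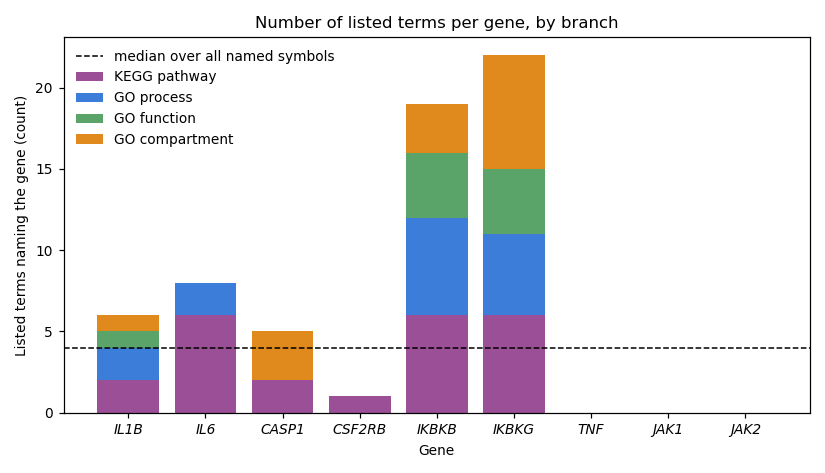
Number of listed GO terms and KEGG pathways that name each gene (bars, coloured by branch), with the median over all named symbols as a dashed line. IKBKG reaches 22 terms and IKBKB 19, while CSF2RB has 1 and TNF, JAK1 and JAK2 have none.

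All 6 genes were named in a KEGG pathway, as were 22.6% of the GO and KEGG symbols and 5.60% of all protein-coding genes. Each carried the gene identifier that RefSeq gives it, and no other symbol carried that identifier, which held for 88.1% of symbols. This matters because entries of these tables can repeat an identifier under several symbols. No symbol carried the identifiers of TNF, JAK1 or JAK2 either. IKBKG has a partial copy close by on the same chromosome, the pseudogene IKBKGP1, and the reads of the 2 copies could not be told apart here.

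The cytokine gene IL1B lies on chromosome 2 from 112829751 to 112836779 (RefSeq, GRCh38.p14) and spans 7.03 kb. Its GO terms were cytosol, negative regulation of cell population proliferation, protein domain specific binding, and regulation of I-kappaB kinase/NF-kappaB signaling. The last of these was its most specific term. The authors' deposited table gave it 20 entries for 29 background genes (p = 0.0454, corrected p = 1). Those entries stood on 19 distinct identifiers, 65.5% of the term's genes (exact Clopper-Pearson 95% interval 45.7 to 82.1%). This and the other intervals treat a term's genes as independent draws and cover no spread between replicates. IKBKG was the other of the 6 genes in this NF-kappaB term, beside CARD8, TRAF2 and TRAF3. Cytosol was IL1B's one term with a corrected p under 0.05 in the authors' deposited table (5.90e-11), where 12.2% of the listed GO terms and 5.26% of the KEGG pathways passed that limit.

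IL6 lies on chromosome 7 from 22727200 to 22731998 and spans 4.80 kb. It was the one gene besides CSF2RB with no compartment term and no term past a corrected p of 0.05. Its 2 GO terms were processes. Negative regulation of cell population proliferation, which it shared with IL1B, held 209 entries for 394 background genes at a corrected p of 0.114, by the authors' deposited table. By distinct identifier that term fell to 151 genes, 38.3% of the 394, against 53.0% by entry. Positive regulation of translation held 44 entries for 73 background genes by the authors' deposited table (corrected p = 0.797). It named IL6 alone of the 6 genes, and no other gene of the cytokine and NF-kappaB lists described below. The other 6 of IL6's terms were KEGG pathways, among them HIF-1 signaling pathway, which also held IL6R, STAT3, NFKB1 and RELA. RefSeq records HGF as a synonym of IL6, and HGF, hepatocyte growth factor, was named on its own identifier in 4 terms.

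CASP1 lies on chromosome 11 from 105025443 to 105036686 and spans 11.2 kb. It was named in cytosol, cytoplasm and protein-containing complex, with no GO process or function term, and in the pathways Legionellosis and C-type lectin receptor signaling pathway. Cytosol was its one term past the corrected limit, and the authors' deposited table put protein-containing complex at 0.305 and cytoplasm at 0.451. The symbol whose terms were most like those of CASP1 was CARD9, an adaptor that links C-type lectin receptors to NF-kappaB. It had 4 terms and shared all of them, a Jaccard index (shared terms over all terms of either gene) of 0.800. NAE1 and PPFIA1 followed at 0.500.

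IL1B and CASP1, substrate and protease, shared 3 of their 6 and 5 terms. These were cytosol, C-type lectin receptor signaling pathway and Legionellosis, and the Jaccard index of 0.375 made CASP1 the symbol nearest to IL1B. IPCEF1 and SH2B3 came next at 0.333, with 2 terms each. IL6 was nearest to IL1B and NFKB1 (0.273 each) and to NFKB2 (0.267). These likenesses are over annotation terms, which broad terms such as cytosol can set, and describe no level.

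CSF2RB codes for the beta chain shared by the receptors of GM-CSF, IL-3 and IL-5. It lies on chromosome 22 from 36913628 to 36940439 and spans 26.8 kb. It was named in 1 term, the KEGG pathway Apoptosis, so its place in the tables rests on that pathway alone. Apoptosis held 73 entries for 136 background genes by the authors' deposited table (p = 0.0109, corrected p = 0.236). The same pathway was the one term of IL3RA, the IL-3 binding chain that pairs with CSF2RB, and of TNFSF10, the death ligand TRAIL, so both had a Jaccard index of 1 with CSF2RB. LMNB2, a nuclear lamin with 2 terms, followed at 0.500. CSF2RA, the GM-CSF binding chain, was not named.

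IKBKB codes for the catalytic kinase IKK beta and lies on chromosome 8 from 42271302 to 42332460, over 61.2 kb. IKBKG codes for NEMO, the regulatory subunit that binds ubiquitin chains, and lies on chromosome X from 154541238 to 154565046, over 23.8 kb. They shared 11 terms, the most of any pair among the 6 genes, with a Jaccard index of 0.367. The shared terms included cytosol, nucleus, viral process, T cell receptor signaling pathway and the TAP-dependent antigen presentation term. Of these, viral process passed a corrected p of 0.05 together with cytosol and nucleus. The authors' deposited table gave TAP-dependent presentation of exogenous antigen 51 entries for 75 background genes (corrected p = 0.261), and T cell receptor signaling pathway 88 for 174 (corrected p = 1). Viral process had a corrected p of 7.46e-07 and nucleus one of 0.00503 by the authors' deposited table.

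The pair differed in their kinase and ubiquitin terms. IKBKB alone was named in ATP binding, protein kinase activity, protein serine/threonine kinase activity, protein kinase binding, protein phosphorylation and peptidyl-serine phosphorylation. Of these, ATP binding passed the corrected limit (819 entries for 1463 genes, 6.03e-11, by the authors' deposited table). The smallest term of IKBKB was cortical actin cytoskeleton organization, to which the authors' deposited table gave 21 entries for 29 genes (corrected p = 0.901). IKBKG alone was named in nucleoplasm (corrected p 3.05e-20 in the authors' deposited table), ubiquitin protein ligase binding (4.93e-06) and cellular response to DNA damage stimulus (0.0392). It was also the one gene of the 6 in K63-linked polyubiquitin modification-dependent protein binding, to which the authors' deposited table gave 18 entries for 22 genes (corrected p = 0.757). That term stood on 15 distinct identifiers, 68.2% of its genes (95% interval 45.1 to 86.1%), with TNFAIP3, IKBKE, OPTN and SQSTM1 among the named symbols.

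The genes nearest to IKBKB in their terms were the kinases PRKD2 and WNK1, at 0.429 with 9 shared terms each. C1orf147, a symbol that carries the identifier of IKBKE, followed at 0.423, the same value as IKBKE itself. IKBKG was nearest to CASP8, the initiator caspase of death receptors (0.400), then to RELA (0.389) and IKBKB (0.367). Among the 6 genes, IKBKG had 6 terms with a corrected p under 0.05 in the authors' deposited table, IKBKB 4, IL1B and CASP1 1 each, and IL6 and CSF2RB 0. Those were 7 distinct GO terms of the 25 GO terms that named any of them, and 0 of the 9 KEGG pathways. Over all listed terms, 12.2% of GO terms and 5.26% of KEGG pathways passed that limit. The 7 included broad terms such as cytosol, nucleus and nucleoplasm, and the difference in shares was not tested.

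**Figure D2:**
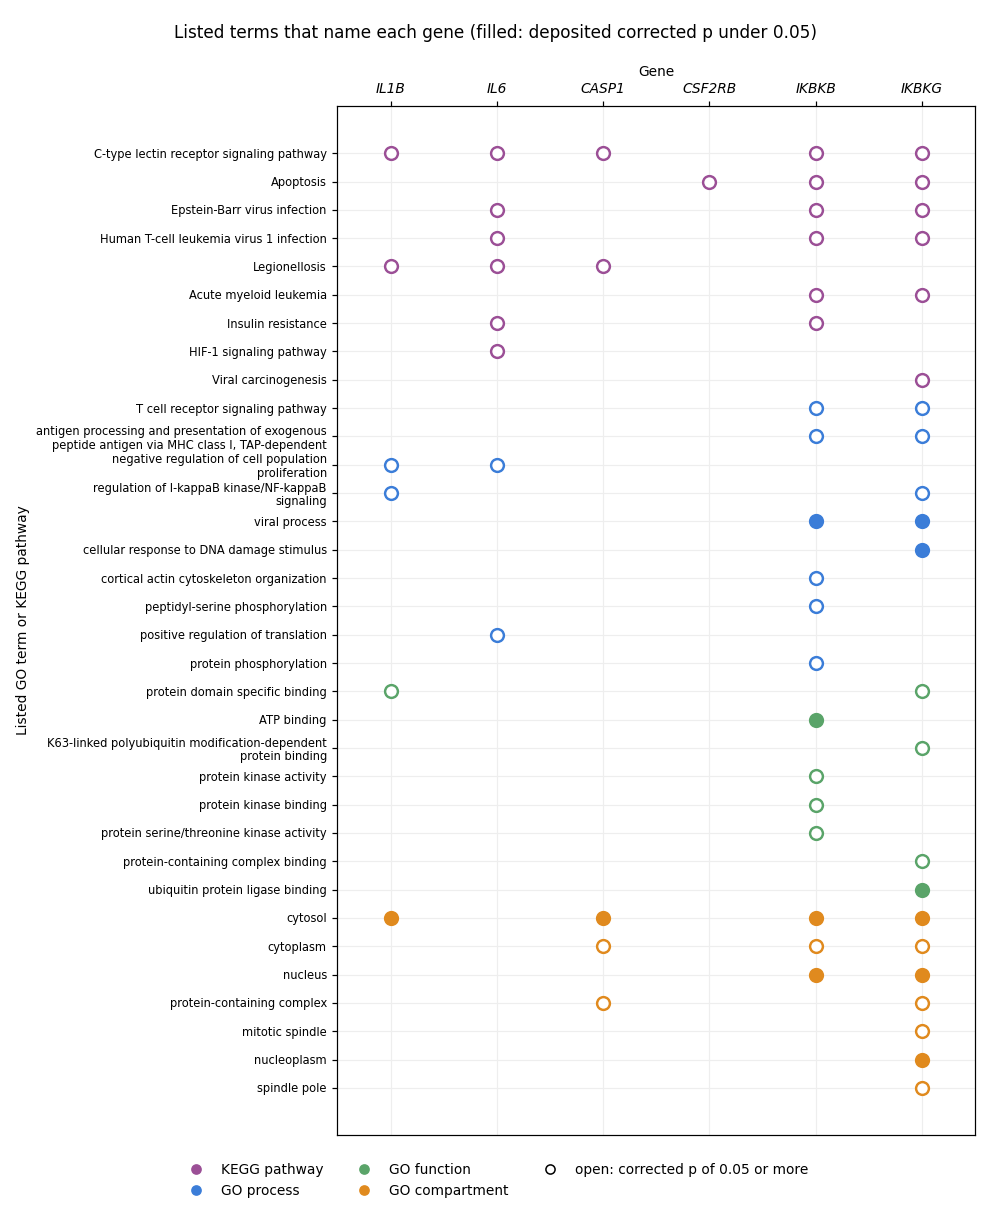
Listed terms (rows) that name each of the 6 genes (columns), coloured by branch; filled points have a deposited corrected p under 0.05 and open points do not. IKBKB and IKBKG share 11 rows, CSF2RB has 1, and all 9 KEGG pathways are open. Of all 38 listed KEGG pathways, 2 had a corrected p under 0.05.

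Of the 9 KEGG pathways 5 named at least 3 of the 6 genes, and of the 25 GO terms 2 did, cytosol and cytoplasm. C-type lectin receptor signaling pathway, by which myeloid cells sense fungi, named 5 of the 6 genes, all but CSF2RB. It held 55 entries for 104 background genes by the authors' deposited table (p = 0.0293, corrected p = 0.288). They stood on 51 identifiers, 49.0% of the pathway (95% interval 39.1 to 59.0%). The same pathway also named, among others, NFKB1, NFKB2, RELA, RELB, NLRP3, BCL10, MAP3K14, IKBKE and STAT2. Its entries ran from adaptors through IKK and NF-kappaB to the cytokines.

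Legionellosis, the response to a bacterium that grows in macrophages, named IL1B, IL6 and CASP1 and neither IKK gene. By the authors' deposited table it held 32 entries for 55 genes (corrected p = 0.334). By distinct identifier this was 56.4% of the pathway (95% interval 42.3 to 69.7%), the highest share of the 9. TLR2, CXCL1, NLRC4, NFKB1, NFKB2 and RELA stood beside the 3 genes. Apoptosis named CSF2RB, IKBKB and IKBKG, on 47.1% of its genes by identifier (95% interval 38.4 to 55.8%), with IL3RA, TNFRSF1A, TRAF2, RIPK1 and MAP3K14. Every one of the 6 genes was in the C-type lectin or the Apoptosis pathway.

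IL6, IKBKB and IKBKG stood together in both KEGG pathways of lymphotropic viruses. The authors' deposited table gave Human T-cell leukemia virus 1 infection 110 entries for 219 genes (corrected p = 0.231) and Epstein-Barr virus infection 101 for 201 (corrected p = 0.260). The Epstein-Barr pathway held 18 further genes of the cytokine and NF-kappaB lists, among them STAT2, STAT3 and TYK2. Insulin resistance named IL6 and IKBKB (corrected p 0.405 in the authors' deposited table). Acute myeloid leukemia named IKBKB and IKBKG (0.288), and Viral carcinogenesis IKBKG alone (0.288), in the authors' deposited table. The HIF-1 pathway, IL6's alone among the 6, held 60 entries for 109 genes by the authors' deposited table (corrected p = 0.260). By identifier the 9 pathways lay between 44.8% and 56.4%, and their intervals overlapped, as the plot of pathway shares shows. The pathways shared genes, NFKB1 and RELA among them, so the overlap is no test of a difference. Their rich factors in the authors' deposited table ran from 1.46 to 1.75. All 34 terms that named one of the 6 genes had a p of at most 0.0461 in that table. Whether terms were listed by their p was not tested. Had they been, terms with lower shares would be left out, and genes found only in them. The shares and rich factors of listed terms are therefore a description only.

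**Figure D3:**
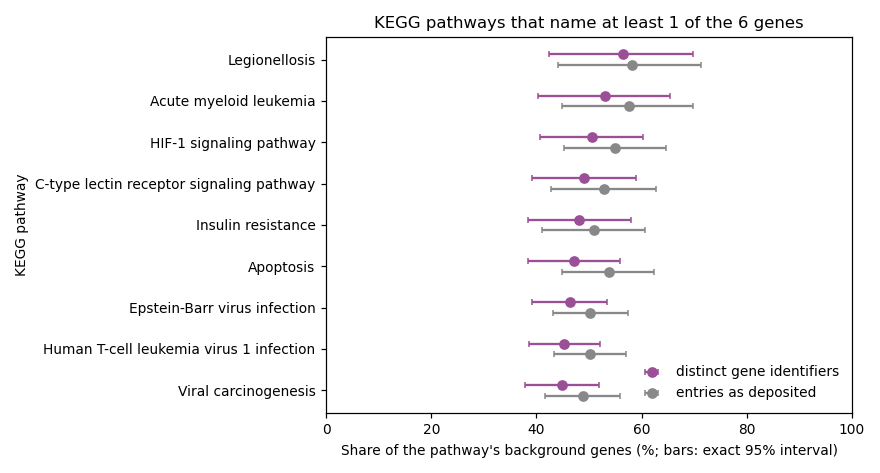
Share of each pathway's background genes that was named (x axis, in percent), for the 9 KEGG pathways that name at least 1 of the 6 genes, by distinct identifier and by entry, with exact 95% intervals. The shares by identifier run from 44.8 to 56.4% and the intervals of all 9 pathways overlap. Intervals by entry count repeated identifiers as separate genes.

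KEGG, as background, places TNF in Apoptosis, Legionellosis and the C-type lectin pathway, and JAK1 in both virus pathways named above. Those pathways were listed, and their entries included neither gene. TNF spans 2.77 kb, less than any of the 6 genes, and JAK1 and JAK2 span 235 and 146 kb, more than any of them. Of the 6 genes, 5 were shorter than 35.8 kb, the median of named protein-coding genes, against 20.2 kb for those not named. A gene outside every listed term may still have had a peak, because only genes of listed terms or of the family table appear. That reason does not cover TNF and JAK1 if the deposited background holds them in those pathways, which was not checked. The depth behind them is unknown, so neither can be called unbound.

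None of the 6 genes was paired with a family of RNA-binding proteins in the third table, which held 19.8% of the GO and KEGG symbols and 5.94% of all protein-coding genes. That table pairs 1348 symbols with 4 families and holds no number. Of 139 genes in 7 lists of the same routes, 9 were in it. They were IL1RN, NLRP1, NLRC4, TRAF2, MAP3K14, RNF31, IKBKE, TYK2 and STAT2.

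The rest of the route was read from those 7 lists. The 6 genes were chosen for being named, and TNF, JAK1 and JAK2 for not being named, so the shares below leave out these 9 genes. Of the other 130 genes 48 were named (36.9%), against 25.9% of all 20056 protein-coding genes. A gene could be named only through a listed term or the family table, so widely annotated genes had more ways to be named. Named genes of the lists, the 6 included, stood in a median of 7 terms, against 4 over all symbols. The part that annotation plays in the shares of the lists was not tested. The lists were chosen with earlier results of these data known, so the shares describe them and no test is attached.

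Of the 8 IKK and NF-kappaB genes besides IKBKB and IKBKG, 6 were named (75.0%). The 5 NF-kappaB subunits NFKB1, NFKB2, REL, RELA and RELB were all among them, in 20, 11, 6, 28 and 11 terms in that order. IKBKE, the IKK epsilon kinase, was named in 18 terms. CHUK, which codes for the partner kinase IKK alpha, and TBK1 were not named, so the tables held IKBKB and IKBKG of the classical complex without CHUK. All 6 were also named in KEGG, as were 22.6% of the GO and KEGG symbols and 5.60% of all protein-coding genes. NFKB1 and RELA stood in 9 KEGG pathways each, NFKB2 in 5, RELB in 3, IKBKE in 2 and REL in 1. The part that wide annotation plays in this share was not tested.

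Of the 13 inflammasome genes besides CASP1, 7 were named (53.8%). They were the sensors NLRP1, NLRP3 and NLRC4, the pyrin gene MEFV, CARD8, TXNIP, and GSDMD, whose product forms the pore through which IL-1 beta leaves the cell. PYCARD, the adaptor between sensors and caspase-1, was not named, nor were CASP4, CASP5, AIM2, NEK7 and CARD16. CARD16 is a near neighbour and partial copy of CASP1, and reads shared between them could not be examined here. With CASP1, the KEGG table alone held 3 of the 14 genes of the list.

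JAK-STAT genes other than JAK1 and JAK2 were named in 10 of 16 cases (62.5%). Among the STAT genes, STAT2, STAT3, STAT5A, STAT5B and STAT6 were named, in 6, 17, 6, 9 and 4 terms in that order, and STAT4 was not. Of the 4 JAK kinases, TYK2 was named, in 7 terms, and JAK1, JAK2 and JAK3 were not. Among regulators, SOCS3, PTPN6 and PIAS1 were named, while CISH, SOCS1, SOCS2 and PTPN11 were not.

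Adaptors and kinases near the receptors were named in 12 of 28 cases (42.9%). BCL10, IRAK1, IRAK2, MAP3K14, RBCK1, RIPK1 and RNF31 were among them. IRAK1 and IRAK2 carry the IL-1 signal, RIPK1 the TNF signal, and RBCK1 and RNF31 build the linear ubiquitin chains that NEMO binds. BIRC2, BIRC3, IRAK3, IRAK4, MALT1, MAP3K7, MYD88 and SHARPIN were among the 16 not named. MAP3K14, the NIK kinase of the alternative route, shared its identifier with its antisense symbol MAP3K14-AS1. Of the 12 genes in the list headed NF-kappaB inhibitors, 4 were named (33.3%), namely ITCH, NFKBIE, NFKBIZ and TNFAIP3. The heading is loose and does not give the role of each gene, NFKBIZ and BCL3 among them. NFKBIA and NFKBIB, whose products are the main substrates of IKK, were not named, nor were BCL3, CYLD, OTULIN, TAX1BP1, TNIP1 and TNIP2.

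The share of receptor genes lay close to the 25.9% of all protein-coding genes, and that of ligand genes lay below it. Neither difference was tested. Of the 24 receptor genes besides CSF2RB, 5 were named (20.8%): CSF1R, IL3RA, IL6R, TNFRSF1A and TNFRSF1B. In terms with a corrected p under 0.05, 3 of them were named. Those not named included CD40, CSF2RA, CSF3R, CXCR1, CXCR2, IFNGR1, IFNGR2 and IL10RA. For the 2 cytokines of the set, IL6R was named and IL6ST, its signalling partner, was not, and neither were IL1R1 and IL1RAP. IL6ST, IL1R1 and IL1RAP were singled out after their values were seen. Of the 29 ligand genes besides IL1B, IL6 and TNF, 4 were named (13.8%), and 2 in terms with a corrected p under 0.05. The 4 were the IL-1 antagonist IL1RN, the chemokine CXCL1, TGFB1 and TNFSF13B, the B cell factor BAFF. The 17 terms of TNFSF13B included DNA replication, response to UV and ubiquitin-protein transferase activity. RefSeq records DTL as a synonym of TNFSF13B. The gene whose own symbol is DTL, a ubiquitin ligase subunit of DNA replication control, was not named. Without TNFSF13B, 3 of these ligands were named, and TGFB1 alone of them in a term with a corrected p under 0.05. Whether the entries of TNFSF13B stand for DTL was not tested. NLRP3 and TRAF3, both named, also have a synonym that is another gene's symbol, AVP and CAP1 in that order. The genes AVP and CAP1 were not named, and what the entries of NLRP3 and TRAF3 stand for was likewise not tested. CCL2, CCL3, CCL4, CSF1, CSF2, CSF3, CXCL2 and CXCL8 were among those not named. None of the 349 listed terms had extracellular, cytokine or chemokine in its name, so a secreted factor could be named only through another annotation or the family table. The part this plays in the ligand share was not tested.

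**Figure D4:**
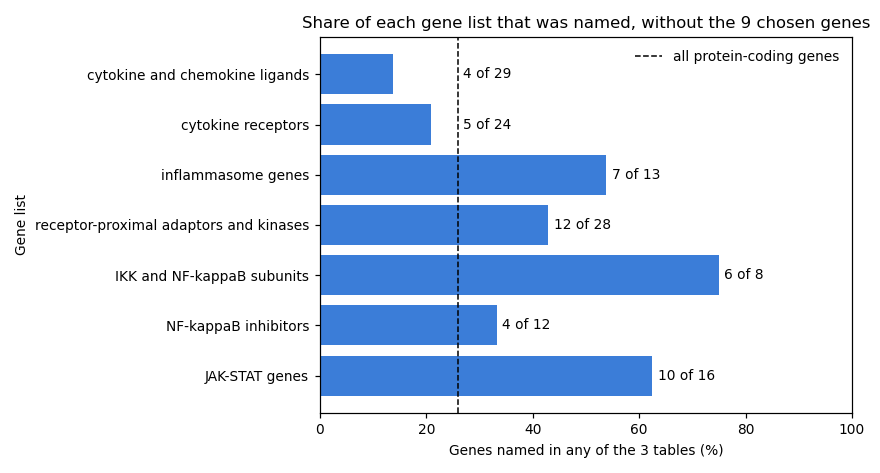
Share of each gene list named in any of the 3 tables (bars, in percent, with counts), without the 9 genes chosen for being named or not, beside the share of all protein-coding genes (dashed line, 25.9%). IKK and NF-kappaB subunits reach 75.0%, cytokine receptors (20.8%) lie close to the line, and ligands (13.8%) lie below it.

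Markers of promyelocytic cells were named in 5 of 10 cases (MPO, PRTN3, CD33, MYC and CEBPA), and ELANE, AZU1, CTSG, CEBPE and SPI1 were not. Markers of other cell types were named in 3 of 8 (EPCAM, KRT18 and PECAM1), with CD3E, CD79A, COL1A1 and ALB among those not named. Over all protein-coding genes 25.9% were named, and both counts lay above that share. These counts do not tell the cell types apart. With no level per gene, the label of the cells could not be checked.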

How the data were processed

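RNA immunoprecipitation and sequencing of HL-60 cells gave 2 libraries, 1 IP and 1 input; labels conflict on which is which, so neither was assigned to a group. The submitters' processing notes name the build hg38; for aligner, peak caller and thresholds, nothing was given in the sources used here. Per the file headers, the deposited GO and KEGG tables hold the count of input entries and of background genes per term, a rich factor (a ratio or fold), a p-value and a corrected p-value. The p-values compare gene lists, not replicates. The third deposited table pairs symbols with families and has no score or other number per the file headers.

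Entries were split into identifier and symbol, and genes were matched by symbol to RefSeq (GRCh38.p14); all 6 matched. Symbols were also matched by synonyms and older names. Terms, distinct identifiers, shares with exact 95% Clopper-Pearson intervals (scipy 1.17.1) and Jaccard indices were computed in Python 3.11.15 and checked on simulated tables; no test was made. The genes and lists were chosen with earlier results of these data known. Named genes were the 6 and the 3 compared, symbols on their identifiers, list genes (all in lists up to 18 genes, otherwise up to 8 by alphabet), and the 3 symbols nearest to each gene. Named terms were KEGG pathways naming a gene, its GO terms under a corrected p of 0.05, its 3 GO terms of smallest p and of fewest background genes, and terms named for immune or NF-kappaB signalling. Further symbols named beside a term, and AVP, CAP1, DTL and HGF, were chosen after their values were seen. Protein and peak sequences were not used here. Some genes of the lists are counted but not reported here by name. Leaving the 9 chosen genes out of the lists was decided after seeing the data.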

Additional observations from a re-analysis of the deposited data

How the results depend on the processing

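The 6 genes were all named by the KEGG table alone, 5 by the GO table alone and 0 by the family table alone. The 61 gene and term pairings became 38 in the GO table and 23 in the KEGG table, 12 with terms of a corrected p under 0.05, 32 with terms of p under 0.01, and 38 with KEGG pathways and GO processes alone. This last setting was chosen after seeing the data, as was matching by a gene's own identifier. With the chosen genes included, the lists held 54 named genes, which became 9 in the family table alone and stayed within 1.5 times under the other 7 settings, 48 without the chosen genes among them. By list, receptors and ligands each became 3 of 6 with terms of a corrected p under 0.05, and inflammasome genes 3 of 8 in the KEGG table alone. Counted by distinct identifier, 8 of the 34 terms moved outside the interval of their share by entry. These were nucleoplasm (50.6%), cytosol (44.3%), ATP binding (53.2%), viral process (58.8%), ubiquitin protein ligase binding (48.3%, against 68.4% by entry), nucleus (42.1%), cytoplasm (39.4%) and negative regulation of cell population proliferation (38.3%). The gap is the repeated identifiers by construction. The interval by entry counts repeated identifiers as separate genes, so it served only as a yardstick for the move. No paired analysis was possible because the tables give no value per library. The depth behind each gene is unknown, so a gene that was not named cannot be called unbound.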

Other observations

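Other listed terms of the same theme named none of the 6 genes. The authors' deposited table gave NIK/NF-kappaB signaling, the alternative route, 41 entries for 62 genes (corrected p = 0.558), and its symbols included MAP3K14, IKBKE, NFKB2, REL, RELA and RELB. They stood on 39 identifiers, 62.9% of the term (95% interval 49.7 to 74.8%). NF-kappaB binding held 23 entries for 31 genes by the authors' deposited table (corrected p = 0.743), with RELA and BCL10.

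Type I interferon terms were listed in each direction. Positive regulation of type I interferon production held 38 entries for 52 genes by the authors' deposited table (corrected p = 0.314), and 69.2% of its genes were named by identifier (95% interval 54.9 to 81.3%). Its symbols included IRAK1, NFKB1, NFKB2, RELA and STAT6. Negative regulation of the same held 23 entries for 31 genes by the authors' deposited table (corrected p = 0.743), with IKBKE, ITCH and TNFAIP3, and a share of 71.0% (95% interval 52.0 to 85.8%). The intervals of both shares overlapped. Activation of innate immune response held 20 entries for 28 genes by the authors' deposited table (corrected p = 0.972), and NLRC4 was its one gene from the lists.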
